A study of Mus musculus with 6 samples.

Results

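Transcripts of 31 cell adhesion genes were followed in RNA of primary mouse hepatic stellate cells. They were the rows of the deposited count table whose symbol was 1 of 25 integrin chains, the selectins Sele and Selp, the immunoglobulin-type ligands Icam1, Icam2 and Vcam1, or the selectin ligand Selplg. All 31 symbols were found among the 22905 rows. By known function 8 were treated as leukocyte members (Itga4, Itgae, Itgal, Itgam, Itgax, Itgb2, Itgb7 and Selplg), 18 as matrix-binding members (the other integrin chains) and 5 as endothelial members (Icam1, Icam2, Vcam1, Sele and Selp). The classes are those of textbook use and not exclusive, since several chains occur on more than 1 cell type.

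All libraries came from mice of the genotype named BucheKI/KI-Hep that received CCl4 (carbon tetrachloride, a hepatotoxin that produces liver fibrosis), and 3 libraries were labelled PBS and 3 DOX. Butyrylcholinesterase was over-expressed by hepatocytes, per the series text, and the comparison asks how stellate cell preparations differed when hepatocyte butyrylcholinesterase had been raised. Both groups share the genotype and CCl4. Age, sex, the promoter of the introduced gene and whether each library came from 1 animal were not given in the sources used here, and p-values then reflect only how far these libraries spread, which may be technical. DOX without the introduced gene was not analysed here, so the action of DOX and that of the gene cannot be told apart.

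Integrins are membrane receptors made of an alpha and a beta chain that must pair to reach the cell surface, and they tie cells to matrix proteins or to ligands on other cells. Leukocytes leave the blood in steps: selectins on endothelium catch glycans carried by leukocyte proteins such as the product of Selplg, and leukocyte integrins then bind ICAM and VCAM proteins. In the liver sinusoid, where flow is slow, firm adhesion through integrins is known to matter more than rolling on selectins. On stellate cells, integrins of the beta 1 and alpha v families sense stiff matrix and release active TGF-beta.

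Depth was even, with 36220282 to 37707364 counts per library, and 1 read was worth 0.0253 to 0.0293 CPM (counts scaled to a common TMM-adjusted library size). Bche had 8 to 26 counts in the PBS libraries and 582 to 3639 in the DOX libraries, in the direction of the labels. Transcripts of other cell types were abundant in both groups. Summed over 12 quiescent stellate cell markers the libraries held 293 to 688 CPM in PBS and 375 to 643 CPM in DOX, with 43 to 139 reads of Lrat, whose product esterifies retinol in stellate cells. Summed over 12 endothelial markers they held 5560 to 6711 CPM in PBS and 4927 to 5958 CPM in DOX. The 14 macrophage markers summed to 4408 to 6772 CPM in PBS and to 8059 to 14968 CPM in DOX. None of these markers was at 0 in all libraries. The values below are therefore those of whole preparations, in which fewer cells of a type and less RNA per cell cannot be told apart.

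Of the 31 members, 28 passed the low-count filter, and each of these had at least 22 reads in every library. Itgal, Itga4 and Itgam, all leukocyte members, rose in DOX by the edgeR quasi-likelihood test at an adjusted p of 0.05 over all genes, and 0 members fell (0 by DESeq2 and limma-voom also, with 10 members in either direction at an unadjusted p under 0.05, or 28.7% of all genes). The calls made up 10.7% of the tested members, beside 6.41% of all 14439 genes tested (4.38% higher and 2.04% lower). Over all genes 632 were higher and 294 lower, and by library totals alone 611 and 730, with the median log2 fold change of all genes shifted by -0.13. The members had a median log2 fold change of 0.24, and 21 of 28 were positive (17 by library totals alone). The median of all genes was -0.013. By class the median was 1.05 for 7 leukocyte members, 0.14 for 16 matrix-binding members and 0.39 for 5 endothelial members. The difference between classes was not tested. The calls did not hold in every fit with 1 library left out. When PBS replicate 2, PBS replicate 3 or DOX replicate 1 was left out, edgeR called 0 members (7, 7 and 6 at an unadjusted p under 0.05). Only Itgal was called when DOX replicate 2 was left out. Over all genes the same fits called 0, 0, 85 and 438. With 1 library left out the log2 fold change ranged from 1.34 to 2.01 for Itga4, 1.35 to 1.81 for Itgal and 0.86 to 1.26 for Itgam.

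**Figure D1:**
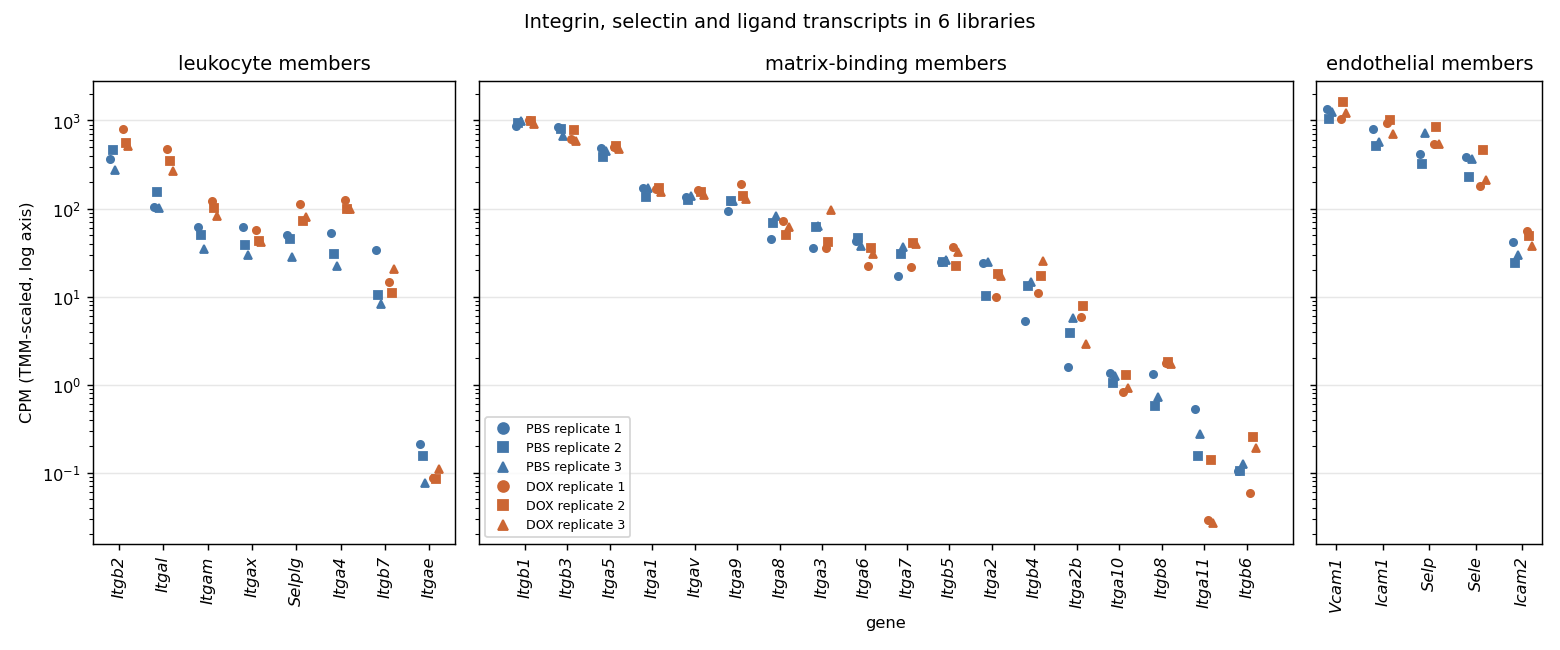
Normalised counts (CPM, log axis) of the 31 members in each library, by class, in order of the PBS mean. Blue symbols are PBS and orange symbols DOX libraries, with 1 symbol shape per replicate number. All 3 DOX libraries lie above all 3 PBS libraries for Itgal, Itga4, Itgam, Selplg and Itgb2, whereas every endothelial member overlaps between the groups.

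Promoter sequences of Itga4, Itgam and Itgax are shown because the first pair rose in DOX and Itgax, which lies next to Itgam, did not pass the test. Itgam spans chromosome 7 from 128062640 to 128118491 and Itgax from 128129547 to 128150657 on the same strand (GENCODE M21, GRCm38), with 11056 bases between the end of one and the start of the other. Itga4 spans chromosome 2 from 79255426 to 79333123. The RefSeq promoter table for GRCm38.p6 held 21 of the 31 members. Each line below gives the 250 bases before the annotated start, 5′ to 3′ on the gene's strand, which is the plus strand for all 3 genes. They lie at chr2:79255176-79255425 for Itga4, chr7:128062390-128062639 for Itgam and chr7:128129300-128129549 for Itgax. Capitals mark matches to GAGGAA (the ETS-type core bound by PU.1, a myeloid transcription factor) or to TGANTCA (the AP-1 type), on either strand.
Itga4: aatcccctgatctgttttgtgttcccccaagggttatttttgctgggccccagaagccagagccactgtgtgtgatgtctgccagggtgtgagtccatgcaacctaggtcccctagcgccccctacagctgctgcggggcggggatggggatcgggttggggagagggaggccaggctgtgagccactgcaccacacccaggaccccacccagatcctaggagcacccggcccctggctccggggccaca
Itgam: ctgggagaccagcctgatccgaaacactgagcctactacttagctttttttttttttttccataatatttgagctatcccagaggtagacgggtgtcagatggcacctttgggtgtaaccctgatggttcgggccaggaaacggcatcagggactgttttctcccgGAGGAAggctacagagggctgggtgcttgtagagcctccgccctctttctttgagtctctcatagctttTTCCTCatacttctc
Itgax: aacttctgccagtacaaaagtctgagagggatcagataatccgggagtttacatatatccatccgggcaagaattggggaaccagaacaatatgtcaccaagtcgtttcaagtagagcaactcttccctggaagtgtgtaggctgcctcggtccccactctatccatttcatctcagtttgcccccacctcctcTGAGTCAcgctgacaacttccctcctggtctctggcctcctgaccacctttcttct
The Itgam sequence held 2 matches to GAGGAA, beginning 84 and 15 bases before the start, and 1 more began 32 bases after it. Itgax held 1 match to TGANTCA, 56 bases before the start, and Itga4 held none of either. The printed matches did not overlap. Over windows of 300 bases, from 250 before to 50 after the start, GAGGAA occurred in 28.3% of all 32851 promoters in the table and in 10 of 23 member promoters, as Itga3 and Itgb6 have a pair each. TGANTCA occurred in 7.81% of all promoters and in those of Itga3, Itga9, Itgax, Sele and Selp. A match is a description of the sequence and not a binding site.

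Itgal encodes the alpha chain of LFA-1, the leukocyte integrin that binds ICAM proteins. It had 103, 155 and 103 CPM in PBS replicates 1, 2 and 3 and 471, 345 and 266 CPM in DOX replicates 1, 2 and 3. The lowest DOX library lay well above the highest PBS library. The rise was 2.99-fold (edgeR adjusted p = 0.0274, log2 fold change 1.58 with an SE of 0.25). In GRCm38 Itgal occupies chromosome 7 from 127296260 to 127335138.

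Itga4 encodes alpha 4, which pairs with beta 1 to bind VCAM1 and fibronectin and with beta 7 to bind MAdCAM. Its values were 53.4, 30.8 and 22.0 CPM in PBS and 124, 98.7 and 98.0 CPM in DOX. DOX replicates 2 and 3 were nearly level, while the PBS libraries spread more widely. The rise was 3.02-fold (edgeR adjusted p = 0.0356, log2 fold change 1.59 with an SE of 0.31), and it was 2.01 on the log2 scale without PBS replicate 1. Cerkl overlaps Itga4 on the opposite strand, at no more than 0.246 CPM in any library.

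Itgam encodes CD11b, the alpha chain of the complement receptor Mac-1 on macrophages, monocytes and neutrophils. It had 62.5, 50.4 and 35.0 CPM in PBS and 122, 102 and 83.4 CPM in DOX. The groups did not overlap, and the rise was 2.08-fold (edgeR adjusted p = 0.0451, log2 fold change 1.05 with an SE of 0.23). It was called without PBS replicate 1 and without DOX replicate 3 but in no other fit with a library left out, and limma on log2(FPKM + 1) did not call it (0.89 on that scale, adjusted p = 0.0532).

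Selplg and Itgb2 were higher in every DOX library but did not pass the threshold. Selplg encodes PSGL-1, the main leukocyte ligand of P-selectin, and had 50.2, 45.5 and 28.1 CPM in PBS and 113, 72.4 and 79.9 CPM in DOX. Its groups did not overlap, and the log2 fold change was 1.10 (SE 0.25, edgeR adjusted p = 0.0505). It passed in 6 of 17 alternative settings, among them RLE factors (adjusted p = 0.0495), library totals alone (0.0470) and DESeq2 (0.000862). Itgb2 encodes beta 2, the shared partner of the products of Itgal, Itgam and Itgax, and had 368, 457 and 273 CPM in PBS and 797, 553 and 510.5 CPM in DOX. The gene is at chromosome 10, from 77530252 to 77565708, and Selplg at chromosome 5, from 113818536 to 113832644. The log2 fold change of Itgb2 was 0.76 (SE 0.24, edgeR adjusted p = 0.0947, DESeq2 adjusted p = 0.0183). DESeq2 called 5 leukocyte members, all higher (17% of all 15353 genes it tested), and limma-voom called 3 members (5.97% of all genes). In simulated counts 26.7% of the DESeq2 calls were false, beside 7.74% for edgeR and 6.80% for limma-voom. Those counts used the gene-wise spread estimated by edgeR and few changed genes, so the shares do not carry over to the calls here. For 5 of the 7 tested leukocyte members every DOX library was above every PBS library, which held for 16.9% of all genes tested.

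Itgax and Itgb7 differed from the other leukocyte members in their values. Itgax encodes CD11c, an alpha chain of dendritic cells and some macrophages, and had 62.4, 39.1 and 29.7 CPM in PBS and 56.5, 42.8 and 42.0 CPM in DOX. The groups overlapped throughout (edgeR adjusted p = 0.828, log2 fold change 0.11 with an SE of 0.27), and the sign turned by library totals alone. Itgb7, the partner of alpha 4 and alpha E in gut-homing lymphocytes, had 33.5, 10.5 and 8.33 CPM in PBS and 14.5, 10.9 and 20.6 CPM in DOX. PBS replicate 1 stood apart, and the log2 fold change was -0.18 (edgeR adjusted p = 0.854, with an SE of 0.53) and became 0.71 without it (adjusted p = 0.196). Itgae, the alpha E chain of tissue-resident lymphocytes, had 3 to 8 counts in PBS and 3 or 4 in DOX and was not tested.

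**Figure D2:**
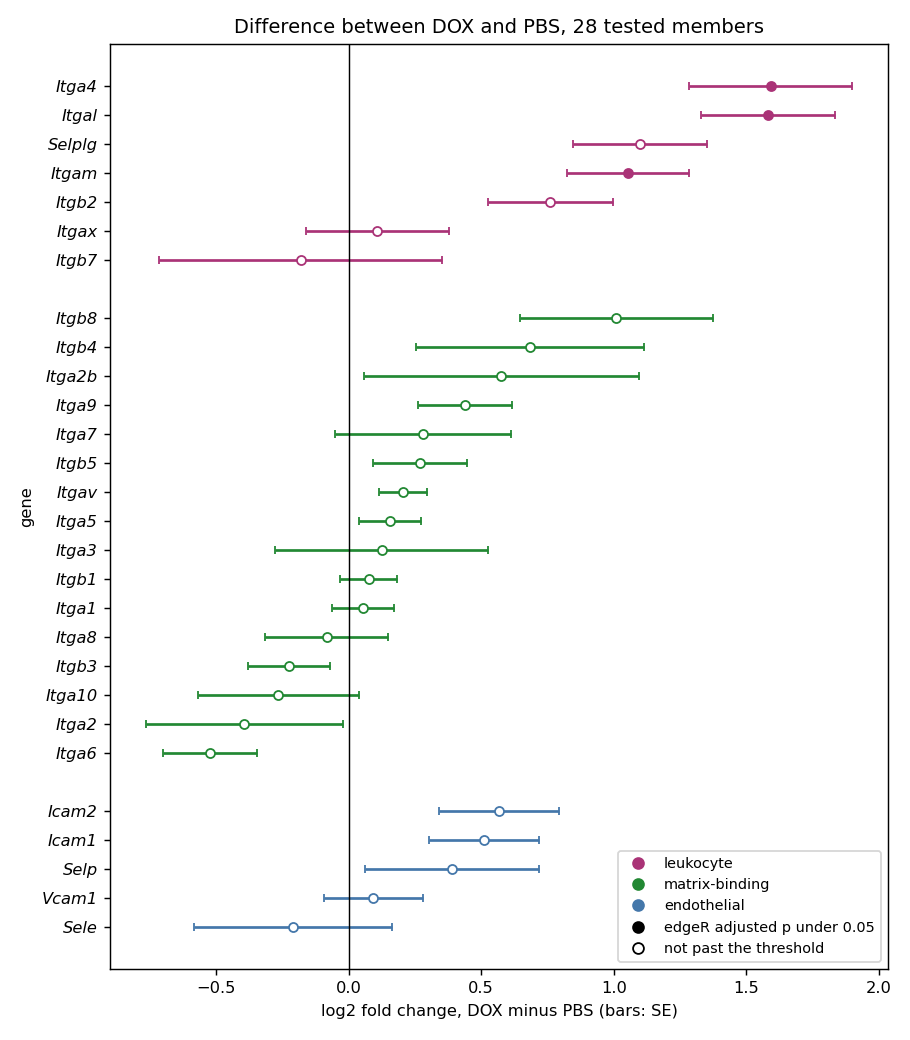
Log2 fold change (DOX minus PBS, horizontal axis) with its SE for the 28 tested members, grouped by class. Filled points passed an edgeR adjusted p of 0.05, which were Itga4, Itgal and Itgam. Matrix-binding members lie on both sides of 0, from -0.52 for Itga6 to 1.01 for Itgb8.

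The libraries in which the leukocyte members were high were shared. Within DOX, replicate 1 held the highest value for 6 of the 7 tested leukocyte members, all but Itgb7. Within PBS, replicate 3 held the lowest value for all 7. The macrophage marker sum was 14968, 8059 and 9239 CPM in DOX replicates 1, 2 and 3 and 4575, 6772 and 4408 CPM in PBS replicates 1, 2 and 3, so in sum DOX replicate 1 was the highest and PBS replicate 3 the lowest library. Adgre1, Clec4f, Vsig4, Timd4, Marco, Csf1r and Cd5l were instead lowest in PBS replicate 1, the PBS library that was highest for 5 of the 7 tested leukocyte members. Of the 14 macrophage markers, 11 had groups that did not overlap, all higher in DOX (16.9% of all genes tested). Of these 14 markers edgeR called only 2, both higher (4.38% of all genes). Clec4f, which marks Kupffer cells, had 74.7 to 289 CPM in PBS and 414 to 1143 CPM in DOX and was not called (edgeR adjusted p = 0.0960). The 8 neutrophil markers summed to 27.2 to 58.8 CPM in PBS and 107 to 152 CPM in DOX, mostly reads of Csf3r. Csf3r, S100a8 and S100a9 rose 2.94-fold, 6.30-fold and 6.24-fold (edgeR adjusted p = 0.0357, 0.0455 and 0.0290), while Ly6g and Cxcr2, which define neutrophils, had fewer than 10 reads in every library. The 10 T and NK cell markers found in the table summed to 2.42 to 7.40 CPM in PBS and 12.1 to 23.3 CPM in DOX. Of the 9 tested among them edgeR called 3, all higher (4.38% of all genes). The 6 monocyte markers summed to 430.1 to 682 CPM in PBS and 636 to 878 CPM in DOX, mostly reads of Fn1. Fn1, also a matrix ligand, overlapped between groups (edgeR adjusted p = 0.900, log2 fold change 0.08). Of the 6 markers, 4 had groups that did not overlap, all higher in DOX (16.9% of all genes tested). Plac8 alone was called higher (4.38% of all genes), rising 3.01-fold (edgeR adjusted p = 0.0405). The 7 dendritic cell markers summed to 34.6 to 43.6 CPM in PBS and 42.2 to 44.8 CPM in DOX, mostly reads of Zbtb46 and Clec9a. Within that list Flt3 rose 4.32-fold (edgeR adjusted p = 0.0346) and Siglech, of plasmacytoid dendritic cells, 6.45-fold (edgeR adjusted p = 0.0411). Zbtb46, Clec9a and Xcr1 overlapped between groups, with log2 fold changes of -0.20, -0.34 and 0.25 (edgeR adjusted p = 0.430, 0.558 and 0.752). Cd209a and Cd209d were not tested. The part of these cell types in the rise of the leukocyte members was not tested.

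Ptprc, which encodes CD45 of all nucleated blood-derived cells, itself rose 2.35-fold (138, 171 and 89.6 CPM in PBS and 379, 292 and 263 CPM in DOX, edgeR adjusted p = 0.0384). Members were therefore also expressed per 100 normalised Ptprc counts of the same library, as a description with no test. On that scale the 3 genes that rose overlapped between the groups. Itgal had 75.1 to 114 counts per 100 of Ptprc in PBS and 101 to 124 in DOX. Itga4 had 18.0 to 38.8 in PBS and 32.6 to 37.3 in DOX, and Itgam 29.6 to 45.4 and 31.7 to 35.0. Selplg, at 26.7 to 36.5 in PBS and 24.8 to 30.4 in DOX, also overlapped. Itgb2 and Itgax lay lower in DOX on this scale with no overlap. So did Itgb1 (544 to 1107 in PBS, 270 to 348 in DOX) and Vcam1 (617 to 1408 and 277 to 555), while Icam1 overlapped. A gene that rises less than Ptprc falls on this scale, so these are not results separate from the rise of Ptprc. Itgb2 had 267 to 305 counts per 100 of Ptprc in PBS and 189.8 to 210.2 in DOX. Itgax had 22.9 to 45.3 in PBS and 14.7 to 16.0 in DOX, so that the 3 DOX libraries were nearly level. Itgb7 had 6.13 to 24.3 in PBS and 3.75 to 7.86 in DOX.

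**Figure D3:**
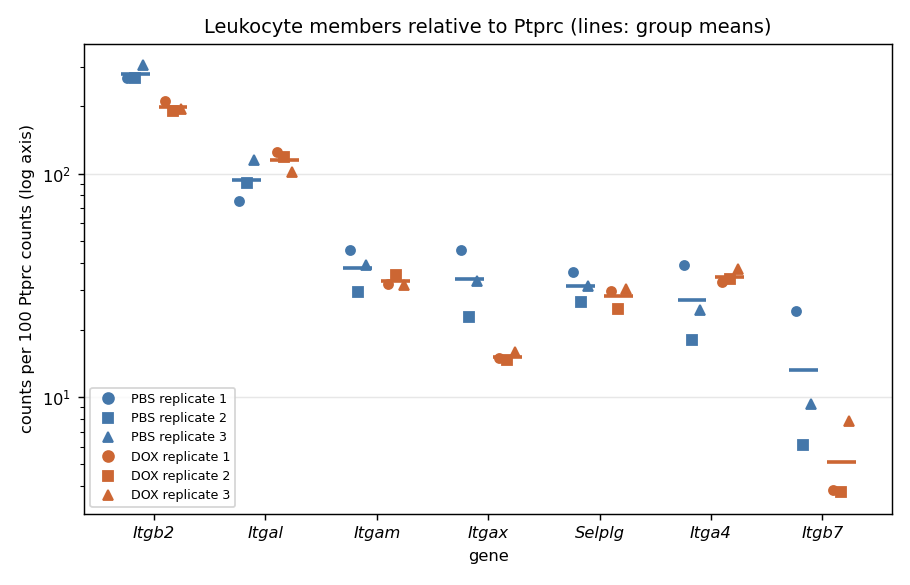
Normalised counts of 7 leukocyte members per 100 counts of Ptprc in the same library (log axis). Points are libraries, with blue for PBS and orange for DOX, and lines are group means. Itgb2 and Itgax lie lower in all DOX libraries than in all PBS libraries, whereas Itgal, Itgam, Selplg and Itga4 overlap. Ptprc itself rose in DOX, so a gene that rises less falls on this scale.

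Levels of different chains were compared per length, in the deposited FPKM (read counts scaled by gene length and by library total). By these values the beta 2 partners among the members, Itgal, Itgam and Itgax, were made up differently in the groups. Alpha chains outside the members were not counted. Summed over Itgal, Itgam and Itgax, the level was 47.8, 51.2 and 35.1 FPKM in PBS and 116, 89.8 and 77.1 FPKM in DOX. Itgal made up 40.8%, 59.2% and 56.9% of this sum in PBS and 69.0%, 66.8% and 64.1% in DOX. Itgax made up 30.8%, 18.6% and 20.6% in PBS and 10.4%, 10.3% and 12.7% in DOX, and neither chain's share overlapped between groups. The share of Itgam, at 22.2% to 28.5% in PBS and 20.6% to 23.3% in DOX, did overlap. The neighbouring genes Itgam and Itgax, whose promoters are printed above, had an FPKM ratio of 0.926 to 1.19 in PBS and 1.84 to 2.21 in DOX. For Itgal and Itgax the ratio was 1.32 to 3.18 in PBS and 5.05 to 6.66 in DOX. Per FPKM of Itgb2 the sum of Itgal, Itgam and Itgax was 0.315 to 0.379 in PBS and 0.446 to 0.513 in DOX. Itgal rose and Itgax did not pass the test, so the shares and ratios of these chains are not results separate from those changes. With 3 libraries against 3 these ratios were not tested.

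Itga4 was set beside the beta chains it can pair with on the same FPKM scale. Per FPKM of Itgb7 it stood at 0.689, 1.27 and 1.14 in PBS and 3.68, 3.90 and 2.05 in DOX. Against Itgb1, its far more abundant partner, the ratio was 0.0195, 0.0105 and 0.00705 in PBS and 0.0383, 0.0314 and 0.0340 in DOX. Neither ratio overlapped between the groups, and PBS replicate 1 was lowest for the former and highest for the latter among PBS libraries. Itga4 alone did not overlap either, so the ratios are not results separate from its rise, and they were not tested.

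**Figure D4:**
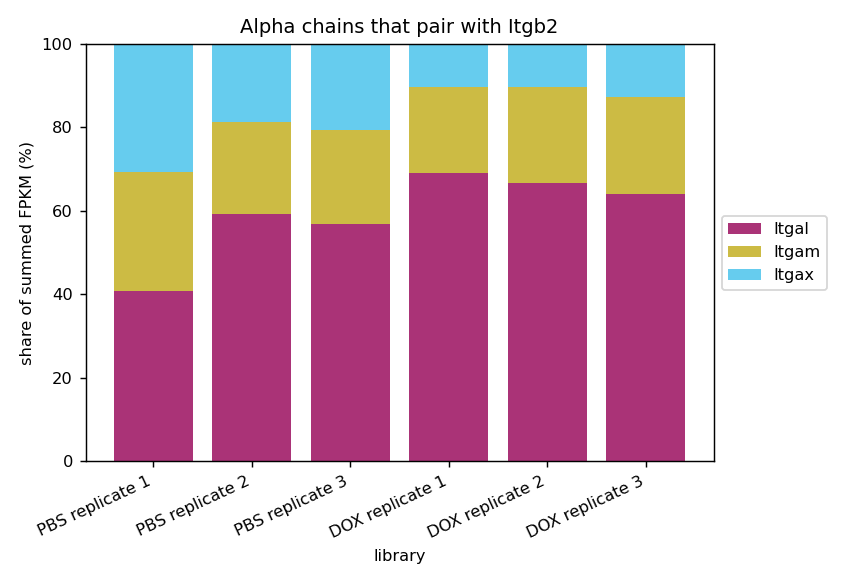
Share of the summed FPKM of Itgal, Itgam and Itgax (percent, vertical axis) contributed by each gene in each library. Itgax holds 18.6% to 30.8% in the PBS libraries and 10.3% to 12.7% in the DOX libraries, and Itgal holds the largest share in all 6.

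Matrix-binding members ranged from Itgb1, Itgb3 and Itga5, which were among the most abundant adhesion transcripts per length, to Itgb6, the rarest per length in PBS. Of 16 tested, edgeR called 0, with 3 at an unadjusted p under 0.05, and DESeq2 and limma-voom called 0. In CPM, groups did not overlap for 4 of the 16 (34.6% of all genes), Itga6 being lower in DOX and Itgb8, Itga9 and Itgav higher. In the deposited FPKM, Itgav (18.9 to 21.2 in PBS, 20.5 to 21.5 in DOX) did overlap. So did Itga9 in FPKM (13.4 to 18.19 in PBS, 18.15 to 24.5 in DOX).

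The beta chains come first, since they set which alpha chains can be used. Itgb1, the partner of most matrix receptors, had 868, 928 and 992 CPM in PBS and 1026, 997 and 913 CPM in DOX, and its log2 fold change was 0.07 (SE 0.11, edgeR adjusted p = 0.688). Itgb3, which pairs with alpha v and with the platelet chain alpha IIb, had 843, 793 and 662 CPM in PBS and 610.4, 776 and 578 CPM in DOX (edgeR adjusted p = 0.376, log2 fold change -0.23 with an SE of 0.15). Its groups overlapped through DOX replicate 2. Itga2b, the alpha IIb chain, had 60 to 226 counts in PBS and 106 to 277 in DOX, and the FPKM of Itgb3 was 57.4 to 306 times that of Itga2b. Beside these, the 8 platelet markers summed to 6.17 to 18.4 CPM in PBS and 10.2 to 15.6 CPM in DOX. Nearly all of it was Pf4, with 216 to 660 reads per library, whereas Gp1ba, Gp1bb, Gp9 and Treml1 had fewer than 10 reads in every library. The part of platelets in these values was not tested. Per FPKM of Itgav, Itgb3 stood at 5.55 to 7.41 in PBS and 4.39 to 5.84 in DOX.

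Itgb5, the vitronectin receptor chain that pairs with alpha v, had 24.8, 24.5 and 25.7 CPM in PBS and 36.2, 22.2 and 32.1 CPM in DOX (edgeR adjusted p = 0.364). Itgb8, an alpha v partner that activates latent TGF-beta, was rare: PBS libraries had 50, 22 and 29 of its reads and DOX libraries 61, 64 and 63. Its log2 fold change was 1.01 (SE 0.36, edgeR adjusted p = 0.125), and the DOX libraries were nearly level and PBS replicate 1 was the nearest to them. Itgb4, the laminin-binding partner of alpha 6 in epithelia, had 5.30, 13.3 and 14.5 CPM in PBS and 10.9, 17.3 and 25.1 CPM in DOX (edgeR adjusted p = 0.338). In PBS as in DOX its lowest value was in replicate 1 and its highest in replicate 3. The 6 cholangiocyte markers summed to 16.5, 54.6 and 59.1 CPM in PBS and 66.4, 104 and 98.0 CPM in DOX, with PBS replicate 1 lowest as for Itgb4. The part of bile duct cells in these values was not tested. Itgb6, an epithelial chain, had 2 to 9 counts per library and was not tested.

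Among alpha chains, Itga5, the fibronectin receptor chain, was the most abundant partner of beta 1. It had 494, 383 and 449 CPM in PBS and 497, 509 and 472 CPM in DOX (edgeR adjusted p = 0.425, log2 fold change 0.16 with an SE of 0.12). Of the summed FPKM of 12 alpha chains that can pair with beta 1, Itga5 made up 48.7% to 55.5% in PBS and 49.5% to 52.2% in DOX. Itga1, a collagen receptor chain, followed with 12.8% to 14.4% in PBS and 12.1% to 13.2% in DOX, and Itgav with 9.69% to 10.2% and 9.55% to 10.7%. Itga4 made up 0.829% to 2.03% in PBS and 3.43% to 4.27% in DOX, without overlap, as for Itga4 alone. In every library Itga5, Itga1 and Itgav thus exceeded Itga4 per length.

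Itga6, a laminin receptor chain, had 42.4, 46.7 and 37.4 CPM in PBS and 22.4, 35.4 and 30.2 CPM in DOX. All DOX libraries were lower, but the log2 fold change of -0.52 (SE 0.18) had an edgeR adjusted p of 0.111. Its FPKM was 2.74 to 8.52 times that of its partner Itgb4 in PBS and 1.28 to 2.18 times in DOX. Itga9, which binds tenascin and osteopontin, had 92.7, 121 and 122 CPM in PBS and 189, 138 and 128 CPM in DOX (edgeR adjusted p = 0.159, log2 fold change 0.44 with an SE of 0.18). DOX replicate 1 was the highest of all libraries. Itgav, the shared chain of vitronectin receptors, had 135, 126 and 140.2 CPM in PBS and 163, 156 and 142 CPM in DOX, a difference of 0.20 on the log2 scale (SE 0.09, edgeR adjusted p = 0.185). The SE of Itgav was the smallest among the members.

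Itga8, an RGD-binding chain of stellate cells and other mesenchyme, had 45.0, 68.0 and 83.0 CPM in PBS and 72.1, 50.3 and 62.6 CPM in DOX, with no separation (log2 fold change -0.08, edgeR adjusted p = 0.846). Itga1 had 135 to 172 CPM in PBS and 154 to 172 CPM in DOX (log2 fold change 0.05, SE 0.12). The laminin-binding chains Itga3 and Itga7 and the collagen-binding chain Itga2 also overlapped, with log2 fold changes of 0.12, 0.28 and -0.39 and edgeR adjusted p of 0.868, 0.620 and 0.526. Itga7 had 16.9, 30.3 and 36.6 CPM in PBS and 21.6, 40.8 and 39.3 CPM in DOX, so replicate 1 was lowest in both groups. Itga2 had 10.2 to 25.0 CPM in PBS and stood within that range or just under it in DOX. Itga3 had 35.6, 61.8 and 62.7 CPM in PBS. DOX replicate 3 held 96.5 CPM of Itga3, where the other DOX libraries held 35.8 and 42.2 CPM, and without it the log2 fold change was -0.45. The same library held 2861 CPM summed over 9 hepatocyte markers, while DOX replicates 1 and 2 held 611 and 195 CPM, and 440 CPM summed over 6 mesothelial markers, of which the other libraries held 74.7 to 270 CPM. The part of RNA from these cells was not tested. The collagen-binding chain Itga10 had 28 to 51 counts per library (edgeR adjusted p = 0.603). Itga11, the collagen receptor chain of myofibroblasts, was counted 20, 6 and 11 times in PBS libraries and 1, 5 and 1 times in DOX libraries, too few to be tested. The 8 myofibroblast markers overlapped between groups, at 512 to 1233 CPM in PBS and 527 to 907 CPM in DOX.

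The endothelial members showed no separation between the groups. Of 5 tested, edgeR called 0 (6.41% of all genes) with 2 at an unadjusted p under 0.05 (28.7% of all genes), and DESeq2 and limma-voom called 0. Icam1, the ligand of LFA-1 and Mac-1, had 791, 514 and 569 CPM in PBS and 939, 1025 and 705 CPM in DOX (edgeR adjusted p = 0.161, log2 fold change 0.51 with an SE of 0.21). Icam2, a constitutive LFA-1 ligand of endothelium, had 41.6, 24.2 and 29.8 CPM in PBS and 55.4, 49.1 and 37.1 CPM in DOX (edgeR adjusted p = 0.156, log2 fold change 0.57 with an SE of 0.23). For each of these genes only PBS replicate 1 reached into the DOX range.

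Vcam1, the ligand of alpha 4 beta 1 integrin, had 1344, 1052 and 1261 CPM in PBS and 1051.5, 1619.5 and 1231 CPM in DOX. Its log2 fold change was 0.09 (SE 0.19, edgeR adjusted p = 0.781), and the sign turned by library totals alone. Its groups overlapped, with DOX replicate 2 highest and DOX replicate 1 level with the lowest PBS library. Per FPKM of Icam1, Vcam1 stood at 1.29 to 1.68 in PBS and 0.849 to 1.32 in DOX. The selectin genes, whose products catch rolling leukocytes, had the largest SEs of these 5 genes. Sele had 386, 231 and 363 CPM in PBS and 180.3, 457 and 209 CPM in DOX (edgeR adjusted p = 0.750, log2 fold change -0.21 with an SE of 0.37). Selp had 416, 320.1 and 730.4 CPM in PBS and 536, 845 and 538 CPM in DOX (edgeR adjusted p = 0.476, log2 fold change 0.39 with an SE of 0.33). Gm16548, on the opposite strand of Selp, had at most 6.69 CPM.

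These 5 genes shared their extremes. PBS replicate 2 was the lowest PBS library for all 5, and DOX replicate 2 was the highest DOX library for Icam1, Vcam1, Sele and Selp. The sum of endothelial markers was ordered otherwise, with 5560, 6711 and 6666 CPM in PBS replicates 1, 2 and 3 and 5958, 5927 and 4927 CPM in DOX replicates 1, 2 and 3. Of the 12 endothelial markers, 5 were lower in every DOX library (17.7% of all genes) and 1 higher (16.9%). Tek and Ptprb, an angiopoietin receptor and a receptor phosphatase of endothelium, were called lower, with edgeR adjusted p of 0.0311 and 0.0240. The part of endothelial cells in the values of these 5 members was not tested.

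Per length, Vcam1 had the highest mean level in each group, but in DOX replicate 1 Icam1 was higher (336 FPKM, beside 285 for Vcam1). In PBS the order was Vcam1 at 374 ± 41.6 FPKM, Icam1 at 252 ± 54.2, Itgb1 at 232 ± 19.4, Selp at 149 ± 66.8, Itgb3 at 134 ± 14.6, Itgb2 at 128 ± 32.7, Itga5 at 103 ± 11.6 and Sele at 84.3 ± 20.8 (SD, n = 3). Over the PBS libraries the range of Vcam1 lay above that of every other member, whereas the ranges of each neighbouring pair from Icam1 to Sele overlapped. Within each PBS library, Itgb1 was above Selp and Itga5 above Sele. All other members were at 27.7 FPKM (Itga1) or lower on average. In DOX, Itgb2 had 198.5 ± 42.3 FPKM, a range that overlapped that of Selp, and Selplg and Itga4 had means of 31.3 and 7.71 FPKM. Pelo, which lies inside the span of Itga1 on the same strand, had 30.2 to 34.4 CPM.

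**Figure D5:**
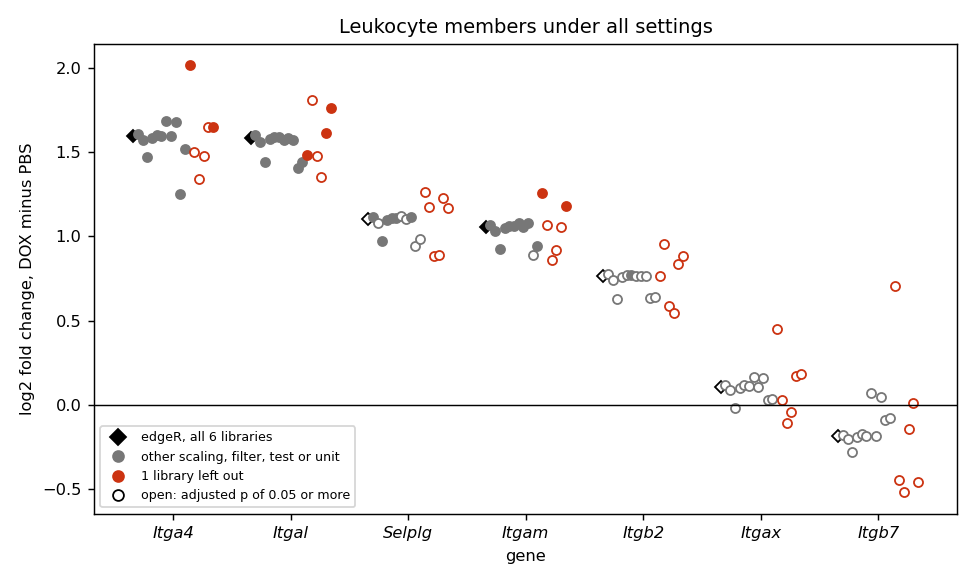
Log2 fold change (DOX minus PBS, vertical axis) of the 7 tested leukocyte members in the edgeR fit of all 6 libraries (diamonds), in 11 fits with another scaling, filter, test or unit (grey) and in 6 fits without 1 library (red). Filled symbols have an adjusted p under 0.05. Itga4, Itgal, Selplg, Itgam and Itgb2 stay above 0 in all of these fits, but most symbols without 1 library are open.

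Other genes of adhesion were read from the same fit. Of 27 tested integrin activators and adaptors, 2 rose and 2 fell (6.41% of all genes were called), with a median log2 fold change of 0.07. Fermt3 encodes kindlin-3, the integrin activator of blood cells, and had 49.0, 54.9 and 38.9 CPM in PBS and 85.6, 76.9 and 72.8 CPM in DOX (edgeR adjusted p = 0.0356, log2 fold change 0.72 with an SE of 0.14). Ptk2b, the focal adhesion kinase relative PYK2, had 64.6, 61.7 and 48.7 CPM in PBS and 183, 132 and 121 CPM in DOX, a 2.49-fold rise (edgeR adjusted p = 0.0240). Among the tensins, which link beta chain tails to actin at mature adhesions, Tns1 was 2.18-fold lower, at 491, 559.7 and 498 CPM in PBS and 181, 290.5 and 239 CPM in DOX (edgeR adjusted p = 0.0265). Tns2 was 1.96-fold lower (edgeR adjusted p = 0.0272). Tns3 overlapped between groups, at 339 to 454 CPM in PBS and 334 to 355 CPM in DOX (edgeR adjusted p = 0.314, log2 fold change -0.21). With PBS replicate 2 or PBS replicate 3 left out all 4 lost the call, and with DOX replicate 1 left out Ptk2b alone was called. Fermt3 also lost it with PBS replicate 1 or DOX replicate 2 left out.

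Of 25 tested matrix and soluble integrin ligands, edgeR called only Hspg2 (4% of the list, beside 6.41% of all genes). Hspg2 encodes perlecan and was 1.79 times lower under DOX (edgeR adjusted p = 0.0365). The list had a median log2 fold change of -0.21 and ran from -2.43 to 2.67. Groups did not overlap for 12 of the 25 (34.6% of all genes), 4 being higher and 8 lower in DOX. The 4 higher were Vtn, Fga, Fgb and Fgg. Fgg had 6.23 to 15.7 CPM in PBS and 63.5, 22.2 and 142 CPM in DOX replicates 1, 2 and 3. The hepatocyte marker sum was 611, 195 and 2861 CPM in the same DOX libraries. The part of hepatocyte RNA in these values was not tested. DESeq2 called 4 of the list higher and 6 lower (17% of all genes it tested). Of 17 other adhesion receptors and ligands, Jaml, a junctional adhesion molecule of leukocytes, was the 1 called (5.88% of the list, beside 6.41% of all genes). It had 1.17, 0.549 and 0.328 CPM in PBS and 5.85, 3.86 and 4.94 CPM in DOX (edgeR adjusted p = 0.0277, log2 fold change 2.84 with an SE of 0.47). Of 11 genes of selectin ligand synthesis, St3gal4, a sialyltransferase, had 58.8, 53.0 and 74.3 CPM in PBS and 135, 109 and 99.6 CPM in DOX, a 1.84-fold rise (edgeR adjusted p = 0.0332). Galnt1, which starts O-glycan chains, fell by 0.50 on the log2 scale (edgeR adjusted p = 0.0434). St3gal4 and Galnt1 were the 2 called (18.2% of the list, beside 6.41% of all genes). The edgeR calls of Hspg2, Jaml, St3gal4 and Galnt1 were lost when PBS replicate 2, PBS replicate 3 or DOX replicate 1 was left out. Galnt1 lost its call with any 1 library left out, Hspg2 also with PBS replicate 1 or DOX replicate 3, and St3gal4 also with PBS replicate 1 or DOX replicate 2.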

How the data were processed

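RNA of 3 PBS and 3 DOX libraries was purified by RNeasy and converted by a SMARTER kit, as the labels' protocols state. The authors deposited raw counts per gene symbol and a table of FPKM values. Deposited FPKM equalled counts divided by 1 length per gene and by the library total (relative tolerance 0.0001, 100% of nonzero values). The aligner, the counter and the use of strand were not given in the sources used here. The builds GRCm38, mm10 and hg38 are named without a role, per the submitters' processing notes.

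Replicates differed by far more than counting error (chi-square per degree of freedom 41.6 to 88.5), so no pair was counted as 1 library deposited again. This does not tell separate animals from separate preparations. Counts were tested with edgeR 4.0.16 (quasi-likelihood, R 4.3.3) with TMM factors, a group term alone and filterByExpr (minimum count 10, total 15), two-sided, with Benjamini-Hochberg adjustment over 14439 genes and a threshold of 0.05. CPM uses the TMM-scaled library size, the SE comes from the F statistic, and values after ± are SD of 3 libraries. A count of 0 allows up to 3 reads, or 0.0758 to 0.0878 CPM (counting error only). DESeq2 1.42.0, limma 3.58.1 (voom, and log2(FPKM + 1) or log2(FPKM + 0.1)), other factors and filters, the replicate number as a block and leaving out each library were alternatives.

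The code was tested on simulated counts for this comparison with 14439 genes: edgeR found 58 of 100 genes changed by 1 on the log2 scale and 85 of 100 changed by 2, and 7.74% of its calls were false. For DESeq2 26.7% of the calls were false and for limma-voom 6.80%. The counts were drawn once, with the gene-wise spread estimated by edgeR and 100 genes changed at each size, so these shares hold for that setting alone. The members and lists were chosen with earlier results of these data known. All 31 members are named. From each other list up to 4 called genes per direction with the lowest p are named, and of marker lists the most abundant or defining genes. Coordinates come from GENCODE M21, in which all 31 members were found.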

Additional observations from a re-analysis of the deposited data

How the results depend on the processing

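Over all genes 926 calls became 2610 with DESeq2 and ranged from 0 to 1090 with 1 library left out (0 without PBS replicates 2 or 3, with 3294 and 3092 genes at an unadjusted edgeR p under 0.05). Member calls went from 3 to 5 with DESeq2 and ranged from 0 to 3 with 1 library left out. They were 2 with limma on log2(FPKM + 1) and 3 or 4 in the other 9 settings. With the replicate block edgeR called 781 genes and 4 members, the added one being Selplg (adjusted p = 0.0347). Deviations of same-numbered libraries correlated at 0.095, -0.11 and 0.23, so the numbers were not taken as pairs, and PBS replicates 1 and 2 correlated better with a library of another number. No called member changed sign. Signs turned only for members that never passed. By library totals alone the log2 fold change was -0.016 for Itgax, -0.074 for Itga1, -0.055 for Itgb1 and -0.031 for Vcam1. With limma on log2(FPKM + 1) and log2(FPKM + 0.1) it was -0.065 and -0.067 for Itga1, -0.083 and -0.098 for Itga3, -0.051 and -0.051 for Itgb1, and -0.049 and -0.049 for Vcam1. For Itgb7 it was 0.068 with limma-voom and 0.048 with the replicate block. With 1 library left out the ranges crossing 0 were -0.11 to 0.45 for Itgax, -0.52 to 0.71 for Itgb7, -0.055 to 0.11 for Itga1, -0.45 to 0.38 for Itga3, -0.29 to 0.12 for Itga8, -0.097 to 0.23 for Vcam1 and -0.75 to 0.029 for Sele. Fits without a library have fewer samples, and the cause of the other changes was not tested. Depth limited Itgae, Itga11 and Itgb6, which had 1 to 20 counts per library.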
